A study of Mus musculus with 11 samples.

Results

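Adipokines are hormones and enzymes that fat cells release, and adiponectin receptors are the membrane proteins through which the best known of them acts. The genes considered were 10 in number: Adipoq (adiponectin), Retn (resistin), Lep (leptin), Cfd (adipsin), Rbp4 (retinol binding protein), Nampt (visfatin), Apln (apelin), Rarres2 (chemerin), Adipor1 and Adipor2. Every probe set that the platform annotation tied to exactly 1 of these symbols was taken, which gave 16 of the 45101 probe sets and covered 9 of the 10 genes. No probe set carried the symbol Cfd alone or with others, so Cfd was not analysed here. Nampt, Rarres2 and Adipor1 had 3 probe sets each, Adipor2 had 2 and the other 5 genes had 1. Probe sets of 1 gene share a target and are not replicates of each other.

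The RNA came from 3T3-L1 adipocytes, which are mouse embryo fibroblasts of a cloned line that were first differentiated in culture; the labels list their source as adipose tissue. Chronic insulin cells (CI, 2 arrays) received 10 nM insulin in 4 additions over a day and the next morning. TNF cells (3 arrays) were kept in 2 ng/ml tumour necrosis factor alpha for 4 days, and DEX cells (3 arrays) in 20 nM dexamethasone, a synthetic glucocorticoid, for 8 days. Control cells (3 arrays) carry no treatment in the labels, although the protocol names 0.01% ethanol carrier as the control for dexamethasone, so whether they received it is unclear. All cells had spent the same number of days after differentiation at harvest. The labels do not say that arrays of a group came from separate cultures, and the spread that p-values rest on may then be technical.

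Adiponectin is secreted by adipocytes as multimers and raises insulin sensitivity through its receptors, which couple to AMP-activated kinase, PPAR-alpha and ceramidase activity. Resistin, named for insulin resistance, is made by mouse adipocytes, leptin reports fat stores to the brain, and chemerin is both a chemoattractant and an adipocyte hormone. Nampt is the enzyme that recycles nicotinamide into NAD and is also found outside cells under the name visfatin.

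The arrays had median intensities of 124 to 129 and highest values of 22501 to 25933, and their number limits the precision of every value. Of the 8 adipocyte markers, 7 had a probe set, with summed intensities of 86451 to 88539 in CI, 73324 to 75630.5 in TNF and 80576 to 86367 in DEX arrays, against 84063 to 86671 in control arrays. Fabp4, the fatty acid binding protein, averaged 22179.6 in CI, 21818 in TNF and 22995 in DEX cells, against 22632 in control cells. In CI 0 of the 7 passed (limma, with 1 at an unadjusted p under 0.05). In TNF 3 were lower and 0 higher, and in DEX 3 were lower and 1 higher, named with Retn and Nampt. The summed intensity of 8 preadipocyte and fibroblast markers was 15741 to 15790.3 in CI, 28776 to 31454 in TNF and 16286 to 18909 in DEX arrays, against 21150.3 to 24199 in control arrays. Of the 7 tested, 0 were higher and 5 lower in CI, 5 higher and 0 lower in TNF, and 1 higher and 3 lower in DEX. Dlk1, the brightest of them, averaged 6650 in CI, 8800 in TNF and 4943 in DEX cells, against 9889 in control cells. S100a4 averaged 2008 in CI, 4828 in TNF and 3721 in DEX cells, against 2786 in control cells. Of 11 macrophage and leukocyte markers 8 were tested, and the sum of all 11 was 3933 to 4254 in CI, 6105 to 6572 in TNF and 3346 to 3843 in DEX arrays, against 4698 to 4881 in control arrays. In CI Mpeg1 was higher (0.57) and Cd14 (-0.68) and Lyz2 (-0.64) were lower. In TNF Cd14 (1.48), Cd53 (0.61) and Lyz2 (0.34) were higher. In DEX Mpeg1 (-1.67), Itgb2 (-0.96) and Lyz2 (-0.62) were lower and Cd14 was higher (0.90). Lyz2 averaged 1494 in CI, 2948 in TNF and 1513 in DEX cells, against 2325 in control cells. The 3 markers below the filter on dim probe sets were Ptprc, Itgam and Mrc1, which averaged at most 52.4 in any group. The 18 probe sets for spiked control transcripts all read lower on CI arrays than on control arrays, with a median log2 difference of -0.23, against -0.069 for TNF and -0.046 for DEX. RNA of a whole culture was measured, so that fewer cells of a type and less RNA per cell cannot be told apart.

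Differences were fitted over all 33782 probe sets with a mean intensity of at least 51.7, the lower quartile of the table, as log2(intensity + 16), and all 16 member probe sets were among them. The threshold was an adjusted p of 0.05 (limma, Benjamini-Hochberg). In CI against control 7 of 16 passed, where 12.9% of all tested probe sets did: 1 was higher (6.41% of all) and 6 lower (6.45% of all). In TNF against control 8 of 16 passed, where 19.0% of all tested probe sets did: 3 were higher (10.8% of all) and 5 lower (8.15% of all). In DEX against control 8 of 16 passed, where 22.2% of all tested probe sets did: 4 were higher (11.3% of all) and 4 lower (10.9% of all). The members' shares thus lay above those of the table in each comparison. This held in both directions for DEX and TNF and in the lower direction for CI. With 1 probe set per gene, 3 of 9 members passed in DEX, near the share of all genes. Members were not matched for brightness. Of the 28782 dimmest tested probe sets, 10.6% (CI), 16.1% (TNF) and 19.5% (DEX) passed. In the 4500 above them 26.5%, 34.1% and 37.8% passed. In the 450 above those it was 20.2%, 48.4% and 41.1%, and in the 50 brightest 8%, 10% and 32%. Without CI replicate 1 the CI count was 2 and without CI replicate 2 it was 0, with 9 of 16 at an unadjusted p under 0.05. The TNF count was 5 without control replicate 2, 3 without control replicate 3 or TNF replicate 2, and 4 without TNF replicate 1. Scaled to the spike controls, an alternative chosen after seeing the data, 2 of the TNF calls were still made, Retn (-0.76) and Rarres2 1425091_at (0.50). The median log2 difference of the 16 probe sets was -0.20 in CI, -0.10 in TNF and -0.026 in DEX, beside 0.011, -0.016 and 0.018 over all tested probe sets. The 3 comparisons share the control arrays. Retn, Nampt and Rarres2 held the differences of more than 0.5 log2 units from control, all of them in TNF or DEX. Probe sets Rarres2 1428538_s_at and 1437902_s_at and Nampt 1455320_at passed in all 3 comparisons, as the plot of differences from control shows.

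**Figure D1:**
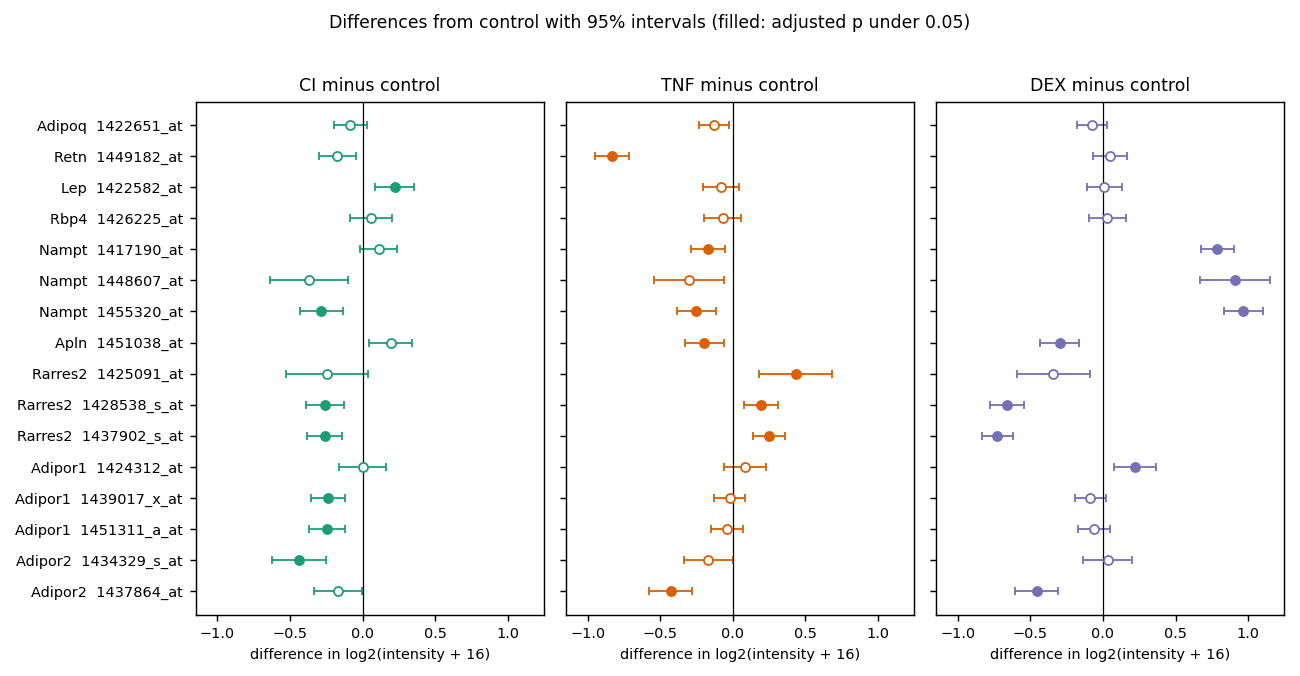
Differences from control of the 16 member probe sets for CI (left), TNF (middle) and DEX (right), as differences in log2(intensity + 16) with 95% intervals of the fit on all 11 arrays. Filled points passed at an adjusted p under 0.05: Retn stands alone at the left in TNF, the 3 Nampt probe sets at the right in DEX, and the brighter pair of Rarres2 probe sets lies right of 0 in TNF and left of it in CI and DEX.

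**Figure D2:**
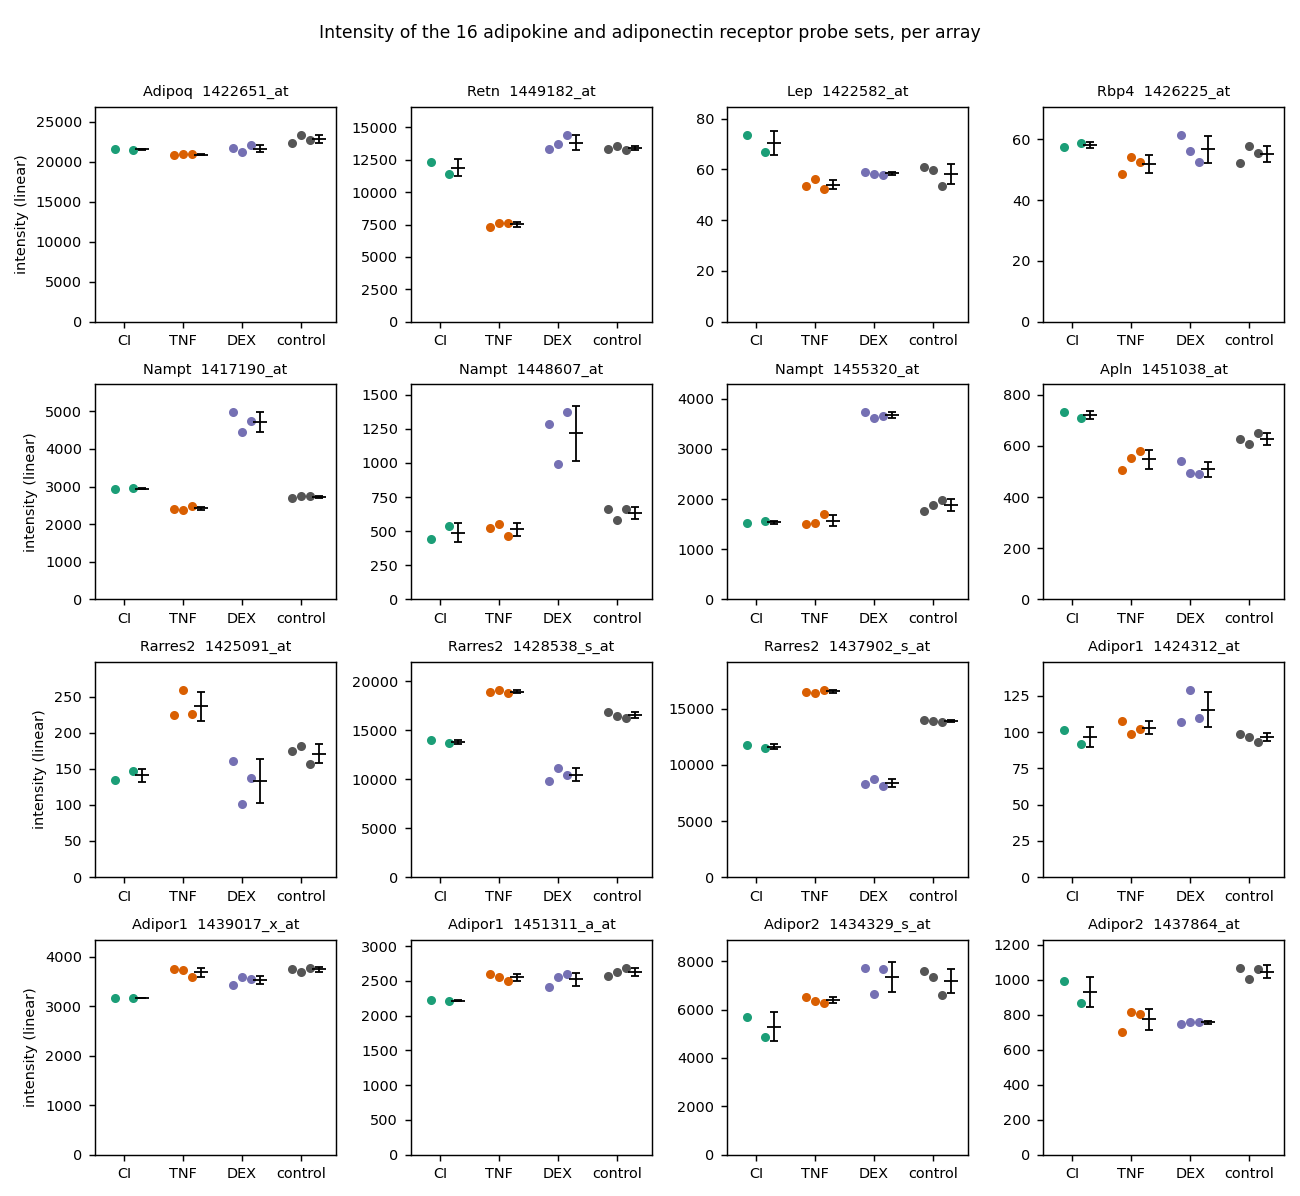
Intensity (linear axis from 0) of every member probe set on each array, in columns for CI, TNF, DEX and control, with the mean and SD of each group in black (n = 2 in CI, n = 3 in the others). Adipoq reads 20816 to 22089.9 on the treated arrays and 22390.5 to 23388 on the control arrays, Retn is lowest in TNF, Nampt is highest in DEX on 3 of 3 probe sets, and Rarres2 is highest in TNF.

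The stretches before the start sites of Retn and Nampt are shown because these genes had the largest differences in TNF and in DEX. They are the 250 bases upstream of the start, on the plus strand of build GRCm38.p6, from RefSeq, with matches to the searched motifs in capitals. Retn lies at chr8:3655520-3655769 and Nampt at chr12:32820085-32820334.
Retn: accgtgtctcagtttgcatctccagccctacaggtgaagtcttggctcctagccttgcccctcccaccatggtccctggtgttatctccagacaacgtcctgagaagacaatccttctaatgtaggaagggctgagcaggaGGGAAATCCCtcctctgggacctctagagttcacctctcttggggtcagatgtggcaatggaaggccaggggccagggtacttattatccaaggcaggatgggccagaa
Nampt: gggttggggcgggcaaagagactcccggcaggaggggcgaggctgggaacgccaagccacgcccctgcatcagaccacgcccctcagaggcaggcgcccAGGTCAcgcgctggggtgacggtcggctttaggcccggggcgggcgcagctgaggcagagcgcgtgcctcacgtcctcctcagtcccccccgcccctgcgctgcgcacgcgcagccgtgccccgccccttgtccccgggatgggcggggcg
The 10 capitals of Retn, GGGAAATCCC, begin 109 bases before the start and match the NF-kappaB pattern (3 G, 5 bases of any kind, 2 C) on both strands, a pattern held by 45.8% of 32851 promoters and by 6 of the 9 genes that had a promoter in the table, all but Rarres2. The capitals of Nampt, AGGTCA, begin 151 bases before the start and match a core motif of nuclear receptors, which 14.0% of all promoters held. Also searched on both strands were the glucocorticoid receptor motif AGAACA (16.1% of promoters), the C/EBP pattern TTGCNNAA (9.6%), CCAAT (33.8%) and TATAAA (12.4%), none of which is in these windows of Retn or Nampt. The patterns were chosen with the expression results known, and a match describes letters only.

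Adiponectin, the most abundant hormone of adipocytes, sat at the top of the scale and did not pass in any comparison. Adipoq had intensities of 21587 and 21507 in the CI arrays, 20816, 20933 and 20922 in the TNF arrays and 21661, 21184 and 22089.9 in the DEX arrays, against 22390.5, 23388 and 22705 in the control arrays. All treated arrays lay below all control arrays. The log2 differences were -0.083 in CI (95% interval -0.20 to 0.033), -0.13 in TNF (-0.23 to -0.024) and -0.077 in DEX (-0.18 to 0.027). Their adjusted p-values (limma) were 0.392 in CI, 0.0819 in TNF and 0.294 in DEX. The TNF difference passed with an intensity trend in the variance (0.00501), a pseudocount of 64 (0.0335) or quantile normalization (0.0407).

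Values close to the top of an array's scale can be compressed, which was not tested here. On each array its intensity was 86.9% to 94.1% of the highest value of that array, and it ranked 2nd to 11th of all probe sets. It was the only member within 0.5 log2 units of the top on all 11 arrays, a band that held 18 to 53 probe sets per array. The brightest Rarres2 probe set entered this band on the 3 TNF arrays alone, at up to 79.7% of the highest value, and Retn reached at most 60.9%. Among the 50 brightest tested probe sets, which include Adipoq, the median absolute difference was 0.0546 in CI, 0.0659 in TNF and 0.0982 in DEX. For the next 450 probe sets the same medians were 0.10, 0.159 and 0.136. The spread within groups was smaller at the top too, with a median SD of 0.0291 log2 units against 0.0484. Within the brightest 50, Adipoq had the 5th lowest difference in TNF, the 10th lowest in CI and the 15th lowest in DEX.

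**Figure D3:**
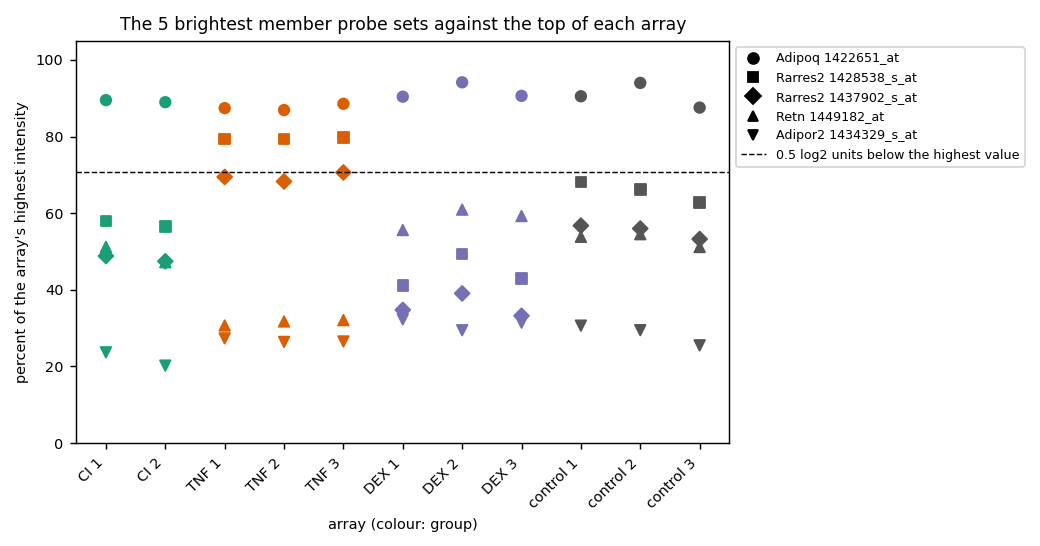
Intensity of the 5 brightest member probe sets as a percentage of the highest intensity of the same array (vertical axis), for the arrays of CI, TNF, DEX and control from left to right. Adipoq lies above the dashed line, 0.5 log2 units below the highest value, on every array, and the brightest Rarres2 probe set crosses it on the 3 TNF arrays only.

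**Figure D4:**
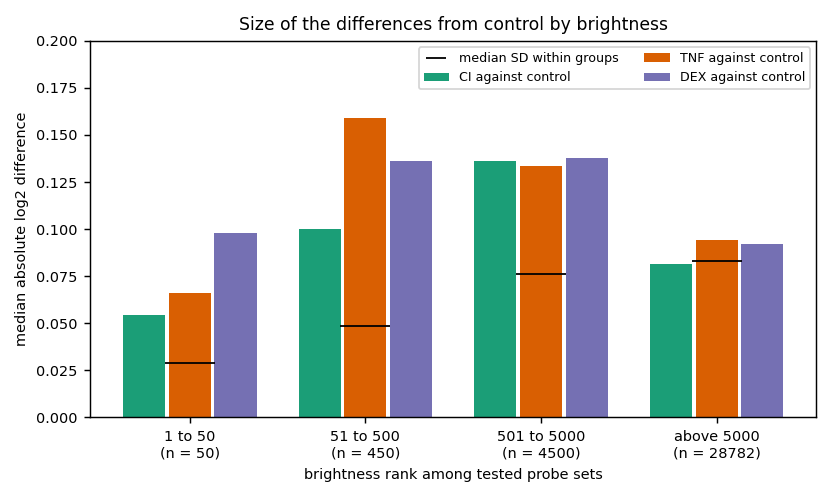
Median absolute log2 difference from control (bars, vertical axis from 0) for tested probe sets grouped by brightness rank, with the median SD within groups as a black line. In the 50 brightest probe sets, the group of Adipoq, differences and spread are smaller than in the next 450, the group of Retn and the brighter Rarres2 probe sets.

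Resistin RNA fell in TNF cells to 0.562 times its control level and did not pass against control in the other treatments. Retn had intensities of 12353 and 11409.9 in the CI arrays, 7308, 7644 and 7581 in the TNF arrays and 13322, 13708 and 14442 in the DEX arrays, against 13316, 13564 and 13268 in the control arrays. Its mean was 7511 ± 179 in TNF cells against 13383 ± 159 in control cells (SD, n = 3 each), a log2 difference of -0.83 (SE 0.0542, adjusted p = 2.04e-07, limma). The 3 TNF arrays lay far below the other 8 arrays, which did not overlap with them. Only 1 of the 450 probe sets of like brightness had a lower value in this comparison. Under the 22 alternatives the difference was -0.85 to -0.76 and passed each time. In CI cells Retn stood at -0.17 (interval -0.30 to -0.042, adjusted p = 0.0826) and in DEX cells at 0.046 (interval -0.071 to 0.16, adjusted p = 0.605). The CI difference passed with a pseudocount of 64 (0.0422) or an intensity trend (0.0212). Scaled to the spike controls it was 0.052 and did not pass. Mean levels ran from TNF up through CI and control to DEX. TNF differed from each of the other groups, while the neighbours CI and control, and control and DEX, did not pass. DEX minus CI was 0.22 (adjusted p = 0.0140). This call was lost with quantile normalization (0.0600), the 2 groups alone (0.0574) or DEX replicate 3 left out (0.0520). It was also lost without CI replicate 2 (a difference of 0.16) and when scaled to the spike controls (a difference of 0.046, adjusted p = 0.829). Of the 7 adipocyte markers, 3 were lower in TNF (Cidec -0.64, Slc2a4 -0.54 and Lipe -0.38) and 0 higher. Their summed intensity was 73324 to 75630.5 in TNF and 84063 to 86671 in control arrays, and their part, and that of the other marker lists, in the Retn value was not tested.

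Chemerin RNA moved in opposite directions, higher in TNF cells and lower in DEX cells. On its brightest probe set, 1428538_s_at, Rarres2 had intensities of 13969.6 and 13660.3 in the CI arrays, 18887, 19120.1 and 18829 in the TNF arrays and 9839, 11104 and 10468 in the DEX arrays, against 16848, 16469 and 16275 in the control arrays. The 4 groups did not overlap, with TNF on top and DEX at the bottom. The log2 difference from control was 0.20 in TNF (SE 0.0546, adjusted p = 0.0224) and -0.66 in DEX (SE 0.0546, adjusted p = 7.80e-07). The second bright probe set, 1437902_s_at, had 11776 and 11469 in the CI arrays, 16539, 16445 and 16687 in the TNF arrays and 8327, 8787 and 8099 in the DEX arrays, against 14038, 13931 and 13807 in the control arrays. It gave the same order of groups, at 0.25 in TNF (adjusted p = 0.00337) and -0.73 in DEX (adjusted p = 1.26e-07).
The dimmer probe set 1425091_at had 135 and 147 in the CI arrays, 224, 259 and 226 in the TNF arrays and 161, 101 and 138 in the DEX arrays, against 175, 181 and 157 in the control arrays. TNF was again on top, and CI and DEX overlapped. Its differences were 0.43 in TNF (interval 0.18 to 0.69, adjusted p = 0.0196) and -0.34 in DEX (interval -0.59 to -0.089, adjusted p = 0.0523), so the dimmer probe set passed in TNF only. DEX replicate 1, at 161, lay inside the control range, and without it the DEX value was -0.47 (adjusted p = 0.00750). Set directly against each other, TNF minus DEX was 0.78 on 1425091_at, 0.86 on 1428538_s_at and 0.98 on 1437902_s_at (adjusted p = 0.000190, 4.29e-08 and 4.96e-09). These 3 differences passed under every alternative tried.
The size of the TNF increase was small on 1428538_s_at, and this call was lost with quantile normalization (adjusted p = 0.0756) and without control replicate 2 (0.0687), control replicate 3 (0.0766), TNF replicate 1 (0.0570) or TNF replicate 2 (0.0694). On 1425091_at it was lost without control replicate 3 (0.0756) or TNF replicate 2 (0.0832), while on 1437902_s_at it passed with each array left out. The brighter pair also read lower in CI than in control (-0.26 and -0.26). The summed preadipocyte and fibroblast markers, and the summed macrophage and leukocyte markers, were highest in TNF and lower in CI and DEX than in control. Single markers did not all follow the sums. Among preadipocyte and fibroblast markers in DEX, Dlk1 (-0.996), Pdgfrb (-0.91) and Thy1 (-0.54) were lower and S100a4 was higher (0.41). The part of these markers in the Rarres2 values was not tested.

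Nampt RNA rose in DEX cells on 3 of 3 probe sets. The brightest, 1417190_at, had intensities of 2931 and 2961 in the CI arrays, 2407, 2379 and 2474 in the TNF arrays and 4974, 4451 and 4739 in the DEX arrays, against 2694, 2738 and 2744 in the control arrays. Probe set 1455320_at had 1521 and 1554 in the CI arrays, 1495, 1529 and 1696 in the TNF arrays and 3733, 3623 and 3667 in the DEX arrays, against 1754, 1889.5 and 1986 in the control arrays. The dimmest, 1448607_at, had 442 and 538 in the CI arrays, 526, 552 and 462 in the TNF arrays and 1288, 989.6 and 1371 in the DEX arrays, against 662, 584 and 659.7 in the control arrays. Every DEX array lay above every array of the other groups on each probe set. The log2 differences from control were 0.79 (SE 0.0536) on 1417190_at, 0.96 (SE 0.0624) on 1455320_at and 0.91 (SE 0.112) on 1448607_at, or 1.73, 1.95 and 1.88 times. Their adjusted p-values (limma) were 1.06e-07, 6.62e-08 and 3.86e-05, and all 3 passed under every alternative tried. DEX minus CI was 0.68 to 1.28 and TNF minus DEX was -0.96 to -1.22, over the 3 probe sets.
In TNF every Nampt probe set lay below control, and 2 of the 3 passed: -0.17 on 1417190_at (adjusted p = 0.0401), -0.25 on 1455320_at (0.0121) and -0.30 on 1448607_at (0.0788). The first of these calls was lost under 12 of 22 alternatives, among them leaving out any single control, CI or TNF array (adjusted p from 0.0508 to 0.116). The second was lost without control replicate 3 (0.0607), TNF replicate 1 (0.0566) or TNF replicate 2 (0.0509).
In CI the probe sets of Nampt disagreed. Probe set 1417190_at stood at 0.11 with both CI arrays above control, while 1455320_at stood at -0.28 and 1448607_at at -0.37 with both below (adjusted p = 0.279, 0.0164 and 0.0734). Which transcripts each probe set reports was not examined. Of the 7 adipocyte markers in DEX, Slc2a4 (-0.80), Pparg (-0.39) and Lipe (-0.29) were lower and Cidec was higher (0.22). Their part, and that of the macrophage and leukocyte markers, in the DEX values of Nampt, Rarres2, Apln and Adipor2 was not tested.

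Apelin RNA fell in DEX cells and stood highest in CI cells. Apln had intensities of 731 and 709.8 in the CI arrays, 507, 554 and 579 in the TNF arrays and 540.5, 493 and 491 in the DEX arrays, against 627, 605 and 651 in the control arrays. The CI arrays lay above the control arrays and the TNF and DEX arrays below them. The difference from control was -0.30 in DEX (SE 0.0623, adjusted p = 0.00314), which passed with each array left out but not when scaled to the spike controls (0.268). In CI it was 0.19 (interval 0.044 to 0.34, adjusted p = 0.0885). The TNF difference of -0.20 passed narrowly (adjusted p = 0.0426) and was lost under 11 of 22 alternatives, among them leaving out any control or CI array, TNF replicate 1 or TNF replicate 2 (adjusted p up to 0.170). Between treatments, TNF minus CI was -0.39 and DEX minus CI -0.49 (adjusted p = 0.000749 and 9.18e-05), and both passed under every alternative. TNF and DEX, neighbours in the order of levels, differed by 0.10 (TNF minus DEX, interval -0.032 to 0.24, adjusted p = 0.236).

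Leptin and retinol binding protein probe sets were dim. The mean of Lep lay at percentile 28.4 and that of Rbp4 at percentile 26.6 of all probe sets, just above the filter, and no detection calls were used here. Lep had intensities of 73.7 and 66.9 in the CI arrays, 53.4, 56.0 and 52.4 in the TNF arrays and 59.1, 58.3 and 57.9 in the DEX arrays, against 61.0, 59.6 and 53.5 in the control arrays. Both CI arrays were above the other 9. The CI difference of 0.22 passed (SE 0.0633, adjusted p = 0.0345) but was lost under 9 of 21 alternatives, including leaving out CI replicate 1 (0.295), CI replicate 2 (0.0512), control replicate 2 (0.0635) or control replicate 3 (0.116). TNF minus CI was -0.30 (adjusted p = 0.00240), which passed under every alternative in which Lep was tested. Rbp4 had intensities of 57.4 and 58.9 in the CI arrays, 48.7, 54.3 and 52.6 in the TNF arrays and 61.6, 56.0 and 52.7 in the DEX arrays, against 52.4, 57.8 and 55.5 in the control arrays. Its groups overlapped, except that TNF lay below CI, and it did not pass in any comparison (log2 differences from control of -0.070 to 0.059).

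The receptor genes were lower on part of their probe sets. Adipor2 was lower in TNF and DEX on 1437864_at, with 991 and 869 in the CI arrays, 703, 813 and 805 in the TNF arrays and 746, 762 and 761 in the DEX arrays, against 1069.8, 1003 and 1064 in the control arrays. On this probe set the DEX arrays and the TNF arrays lay below the CI and control arrays. The differences were -0.43 in TNF (SE 0.0675, adjusted p = 0.000524) and -0.46 in DEX (SE 0.0675, adjusted p = 0.000196), and both passed with each array left out. The brighter Adipor2 probe set 1434329_s_at did not follow. It had intensities of 5712 and 4888 in the CI arrays, 6509.8, 6359 and 6267 in the TNF arrays and 7736, 6627 and 7661 in the DEX arrays, against 7582, 7332 and 6617 in the control arrays. Here CI was lowest (-0.44, SE 0.0866, adjusted p = 0.00449, or 0.0741 without CI replicate 2), DEX overlapped with control (0.031, interval -0.14 to 0.20) and TNF stood at -0.17 (adjusted p = 0.153). DEX minus CI was 0.47 on 1434329_s_at and -0.29 on 1437864_at, 2 calls of opposite sign for 1 gene (adjusted p = 0.000830 and 0.00952). The first of them was lost when scaled to the spike controls (0.30, adjusted p = 0.130, limma). The second was lost without CI replicate 1, where the difference was -0.20.
Adipor1, the receptor tied most closely to AMP-activated kinase, read 3173 and 3172 in CI, 3741, 3739 and 3582 in TNF and 3429, 3584 and 3547 in DEX arrays on 1439017_x_at, against 3756, 3688 and 3779 in control arrays. Probe set 1451311_a_at read 2221 and 2211 in CI, 2603, 2557 and 2501 in TNF and 2413, 2549 and 2603 in DEX arrays, against 2576, 2624 and 2690.0 in control arrays. On both, CI was the lowest group, at -0.24 and -0.25 (adjusted p = 0.0116 and 0.0121). Neither call held with either CI array left out (adjusted p from 0.0663 to 0.0755). The TNF differences (-0.021 and -0.042) and DEX differences (-0.088 and -0.061) did not pass. The dimmest probe set, 1424312_at, lay at percentile 43.8 of all probe sets, with 101 and 91.8 in the CI arrays, 108, 99.0 and 102 in the TNF arrays and 107, 129 and 109.9 in the DEX arrays, against 98.8, 96.9 and 93.4 in the control arrays. It stood at 0.0012 in CI and was higher in DEX by 0.22 (adjusted p = 0.0290), a call lost without any of the 3 control arrays or DEX replicate 2 (adjusted p from 0.0505 to 0.111).

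Under chronic insulin both adiponectin receptor genes, Nampt and Rarres2 read lower than control on part of their probe sets, and 5 of the 6 lower calls lay within the range of the spike controls. These 6 were Adipor2 1434329_s_at, Nampt 1455320_at, Rarres2 1428538_s_at and 1437902_s_at, and Adipor1 1439017_x_at and 1451311_a_at, at -0.24 to -0.44, while the 18 spike probe sets lay at -0.28 to -0.11. Without CI replicate 1, 2 of the 16 member probe sets passed, and without CI replicate 2 the count was 0, where 2602 of all probe sets passed. With 1 CI array left, its spread is taken from the other groups. Without CI replicate 1, and then without CI replicate 2 alone, the differences were -0.27 and -0.24 for Rarres2 1428538_s_at and -0.55 and -0.33 for Adipor2 1434329_s_at. Scaling each array to its spikes brought the median difference of all probe sets in CI to 0.21 and gave 2 member calls, Lep (0.40) and Apln (0.41), both higher. Of these, Lep had passed as deposited, while the Apln call was gained (0.19 as deposited, which did not pass). The part of the spike shift in the CI values was not tested. In 14 of the 16 probe sets both CI arrays lay beyond every control array, which held for 42.2% of all tested.

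**Figure D5:**
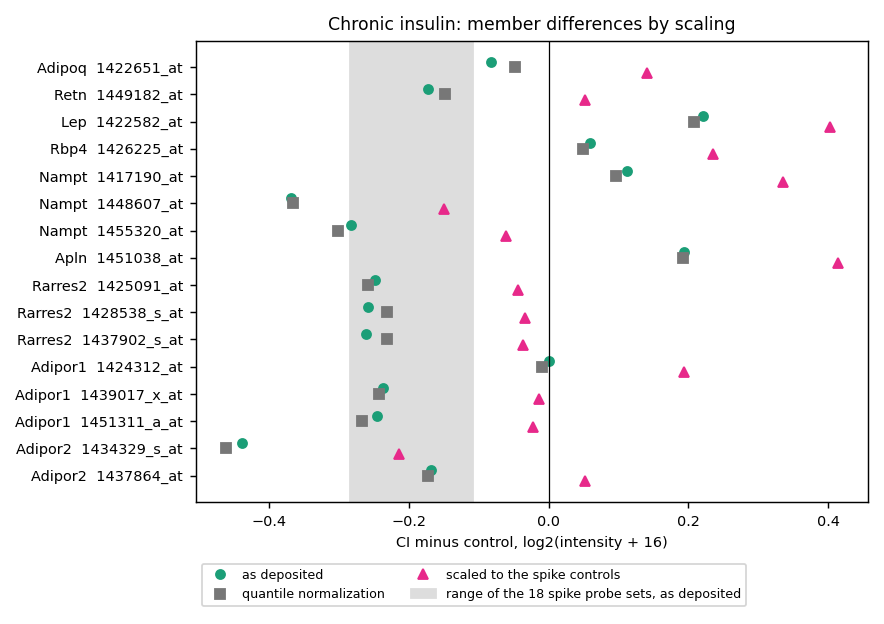
Differences between CI and control, as log2(intensity + 16), for the 16 member probe sets as deposited (circles), after quantile normalization (squares) and scaled to the spike controls (triangles), with the range of the spike probe sets as deposited in grey. Both Adipor1 probe sets that passed and all 3 Rarres2 probe sets lie inside the grey range as deposited and near 0 when scaled to the spikes.

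Set against each other, the treatments differed most in Retn, Nampt, Rarres2 and Apln. In TNF against CI 11 of 16 passed, where 30.0% of all tested probe sets did: 6 were higher (15.5% of all) and 5 lower (14.5% of all). In DEX against CI 12 of 16 passed, where 28.5% of all tested probe sets did: 7 were higher (14.1% of all) and 5 lower (14.3% of all). In TNF against DEX 7 of 16 passed, where 29.3% of all tested probe sets did: 3 were higher (14.8% of all) and 4 lower (14.6% of all). The 7 of TNF against DEX were the 3 Rarres2 probe sets, higher in TNF, and the 3 Nampt probe sets and Retn, lower in TNF. All 7 passed under every alternative tried. The difference for Retn, -0.88 (SE 0.0542, adjusted p = 3.19e-08), was the lowest among 450 probe sets of like brightness. Adipoq differed between treatments by -0.051 (TNF minus DEX), -0.045 (TNF minus CI) and 0.0063 (DEX minus CI), none of which passed. Member probe sets whose groups did not overlap numbered 12 in TNF against control (38.5% of all), 10 in DEX against control (36.9% of all), 13 in TNF against CI (57.2% of all), 13 in DEX against CI (49.2% of all) and 10 in TNF against DEX (43.1% of all).

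Genes that act around the members were counted on the brightest probe set of each. In brackets after a count stands the share of all tested probe sets that passed in that comparison. This basis differs from that of the counts, since it includes every probe set of a gene. With 1 probe set per gene (a member and 15622 others), 2696 passed in CI, 3930 in TNF and 4316 in DEX against control. That is a higher share than the bracketed one in each comparison. The medians over all tested probe sets were given above with those of the members. Several counts lay near that share, and none was tested against it. Among 11 genes of adiponectin folding and release, CI had 1 higher and 0 lower (12.9% of all), TNF 2 higher and 1 lower (19.0% of all) and DEX 2 higher and 2 lower (22.2% of all). Their median log2 difference from control was 0.072 in CI, 0.049 in TNF and 0.015 in DEX. Ero1a, an endoplasmic reticulum oxidase that aids adiponectin release, was higher in CI (0.70, with means of 5505 in CI and 3373 in control) and in DEX (0.38). Gstk1, which encodes the adiponectin assembly factor DsbA-L, was lower in TNF (-0.25) and DEX (-0.29). Plod2 was higher in TNF (0.29) and lower in DEX (-0.42), and Pdia4 was higher in DEX (0.33). Erp44, which retains adiponectin in the cell, did not pass (0.062 in CI, 0.049 in TNF and -0.15 in DEX).
Of 19 adiponectin signalling genes, CI had 0 higher and 4 lower (12.9% of all), TNF 3 higher and 1 lower (19.0% of all) and DEX 6 higher and 3 lower (22.2% of all). The median of these 19 was -0.013 in CI, -0.0078 in TNF and 0.14 in DEX. Cdh13, or T-cadherin, a cell surface binding protein for adiponectin multimers, was higher in DEX by 1.30, with means of 980.2 in DEX and 389.8 in control. Sphk1, which makes sphingosine phosphate, and Prkab2, a subunit of AMP-activated kinase, were higher in DEX too (0.83 and 0.64). Other genes of the list went the other way in DEX: Prkaa2, for a subunit of the same kinase, was lower (-0.24), as was Ppargc1a (-0.35). In TNF Prkaa2 was lower (-0.25) and Prkaa1 higher (0.29). Appl1, the adaptor that binds both receptors, was lower in CI (-0.30) and higher in TNF (0.23). The ceramidase gene Asah2 was lower in CI (-0.44), and Asah1 was higher in TNF (0.17) and lower in DEX (-0.25).
The 9 PAQR relatives of the receptors had 2 higher and 0 lower (12.9% of all) in CI, 0 higher and 2 lower (19.0% of all) in TNF and 0 higher and 1 lower (22.2% of all) in DEX. Their median was 0.051 in CI, -0.11 in TNF and 0.037 in DEX. Mmd was higher in CI (0.55) and lower in TNF (-0.30) and DEX (-0.997), and Paqr4 was lower in TNF (-0.63). Of 8 tested C1q and TNF related proteins, which share the adiponectin head domain, the count in CI was 0 (12.9% of all; limma, with 1 at an unadjusted p under 0.05), and TNF (19.0% of all) and DEX (22.2% of all) had 2 lower each, C1qtnf12 in both (-0.64 and -0.25). The median of the 8 was 0.017 in CI, -0.013 in TNF and -0.016 in DEX.

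Of 9 tested receptors for the other adipokines, counts in TNF and DEX lay near the shares of the whole table. CI had 0 (12.9% of all; limma, with 0 at an unadjusted p under 0.05), TNF 2 higher and 0 lower (19.0% of all) and DEX 2 higher and 0 lower (22.2% of all). Over the 9 the median was 0.040 in CI, 0.033 in TNF and 0.10 in DEX. The TNF calls were Tlr4 (0.89) and Cap1 (0.25), both reported as resistin binding proteins in human cells, and the DEX calls were C3ar1, the C3a receptor gene (0.17), and Stra6 (0.21), which encodes a receptor for retinol binding protein. The chemerin receptor gene Cmklr1 did not pass, at -0.056 in TNF and 0.054 in DEX.
Of 13 tested genes of NAD metabolism around Nampt, CI had 1 higher and 2 lower (12.9% of all), TNF 2 higher and 1 lower (19.0% of all) and DEX 3 higher and 1 lower (22.2% of all). The median of the 13 was -0.025 in CI, -0.0013 in TNF and 0.050 in DEX. Nnmt, which methylates the nicotinamide that Nampt uses, was lower in DEX (-0.58, with means of 1661 in DEX and 2489 in control) and TNF (-0.22) and higher in CI (0.80). Nadk, the NAD kinase gene, was higher in TNF (0.44) and DEX (0.25).
Of 5 tested genes of the complement pathway that adipsin starts, CI had 2 higher and 0 lower (12.9% of all), TNF 2 higher and 0 lower (19.0% of all) and DEX 0 higher and 3 lower (22.2% of all). Over these 5 the median was 0.091 in CI, 0.064 in TNF and -0.23 in DEX. Cfb, complement factor B, was higher in TNF by 3.16, with means of 9256 in TNF and 1026 in control, and lower in DEX (-1.23). Masp1, which encodes a protease that activates the adipsin precursor, was higher in CI (0.36) and TNF (0.35) and lower in DEX (-0.23). Among 18 other secreted adipokines, CI had 4 higher and 2 lower (12.9% of all), TNF 6 higher and 4 lower (19.0% of all) and DEX 4 higher and 4 lower (22.2% of all). The median of these 18 was 0.045 in CI, -0.011 in TNF and 0.011 in DEX. In TNF the highest were Lcn2, or lipocalin 2 (4.63), and Ccl2, a monocyte chemoattractant (2.82). Lcn2 was higher in DEX too (2.49, with means of 978 in DEX and 160 in control). Angptl8, a hormone that inhibits lipoprotein lipase and is raised by feeding, was higher in CI (1.27) and lower in TNF (-0.74) and DEX (-0.86). Nrg4, a neuregulin hormone of fat, was higher in CI (0.54) and lower in TNF (-0.48) and DEX (-0.78), and Agt, the angiotensin precursor, was lower in CI (-0.57) and TNF (-0.66) and higher in DEX (1.59).

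The genes whose levels followed a member most closely over the 11 arrays were found by Pearson's r of log2(intensity + 16) among 15622 other genes. Members and other genes were taken on their brightest probe set. For members with several these were Nampt 1417190_at, Rarres2 1428538_s_at, Adipor1 1439017_x_at and Adipor2 1434329_s_at. Their other probe sets, which disagreed in part, were not used. Each r describes 11 arrays in 4 groups that share a scaling, and group differences dominate it. Nampt was followed by Rnf128 (0.992), Mpp1 (0.991) and Tead4 (0.987), Rarres2 by Cd82 (0.988), Sfrp2 (0.984) and Cyp4v3 (0.979) and Retn by Hibadh (0.985), Uck1 (0.985) and Osgepl1 (0.975). For Apln the closest were Arf1 (0.975), Col6a2 (0.967) and Slc18b1 (0.961), for Adipor1 Atraid (0.973), Ralgds (0.968) and Wbp1 (0.960), for Adipor2 Tmem143 (0.959), Pwwp3a (0.933) and Zscan26 (0.915) and for Lep Cox11 (0.946), Abraxas1 (0.938) and Ttc1 (0.934).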

How the data were processed

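Labelled cRNA from 3 µg of total RNA was hybridised to Affymetrix arrays, per the labels' protocols. What the authors deposited is a single intensity table on a linear scale, holding 45101 probe sets and a column for each of the 11 arrays, and 0 columns of other samples. Background correction, summarisation and normalization are not given in the sources used here. Array quartiles lay within 0.0765 of each other in log2 units, so no array was rescaled. Arrays of a group correlated with Spearman's rho of 0.9960 to 0.9977 and shared 9 to 30 identical values, so no array was a copy. The 64 Affymetrix controls were left out, as were probe sets with a mean under the 25th percentile. Gene names came from the platform annotation (34945 probe sets with 1 symbol, 932 with several and 9160 unlisted).

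Values were taken as log2(intensity + 16), which understates the change of dim genes. Groups were compared with limma 3.58.1 (R 4.3.3; moderated two-sided tests of contrasts between group means) over the 11 arrays together, with 7 residual and 6.54 prior degrees of freedom, and p-values were adjusted by Benjamini-Hochberg over 33782 probe sets. Intervals are 95% intervals of the fit, and errors beside means are SDs. The fit was also run on simulated data with independent noise for each probe set and no shift between arrays. That run cannot speak to the spike shift or to compression at the top of the scale. The members, gene lists, tests and motifs were chosen with earlier results of these data known. Besides all member probe sets, the text names the 3 genes closest to a member and some of the list genes that passed. The latter come from those with the smallest adjusted p (up to 3 in each direction per comparison). Not all of these are named, and which are was not set by a rule. Erp44 and Cmklr1 were named after their values were seen. Alternatives were other pseudocounts, dim filters and normalizations, the 2 groups alone, a replicate block, the brightest probe set per gene, an intensity trend, each array left out and, chosen after seeing the data, scaling to the spike controls.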

Additional observations from a re-analysis of the deposited data

How the results depend on the processing

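No member probe set that passed in a comparison changed direction under any alternative. Of the values recomputed for single probe sets, 1883 kept direction and side of the threshold, 111 lost a call, 25 gained one, and 33 without a call changed sign. Calls that passed under every alternative numbered 0 of 7 in CI against control, 1 of 8 in TNF (Retn), 6 of 8 in DEX, 5 of 11 in TNF against CI, 6 of 12 in DEX against CI and 7 of 7 in TNF against DEX. With each array left out in turn, the member calls ranged over 0 to 8 in CI, 3 to 9 in TNF and 7 to 9 in DEX against control, 8 to 11 in TNF against CI, 8 to 12 in DEX against CI and 7 to 8 in TNF against DEX. The low of CI came without CI replicate 2 (0) and CI replicate 1 (2). In TNF there were 3 without control replicate 3 or TNF replicate 2, 4 without TNF replicate 1 and 5 without control replicate 2. With 1 probe set per gene, 9 member genes were tested, and the calls were 4, 4 and 3 in CI, TNF and DEX against control. Between treatments they were 7 in TNF against CI, 7 in DEX against CI and 3 in TNF against DEX. Fewer probe sets were tested there by construction. Of all genes tested in that way (a member and 15622 others), 2696 passed in CI, 3930 in TNF and 4316 in DEX against control. In TNF against DEX 5645 of them passed. The members' share was near that of all genes in DEX against control and in TNF against DEX, and above it in the other comparisons. Scaled to the spike controls, an alternative chosen after seeing the data, the calls were 2 in CI and 2 in TNF against control, 6 in TNF against CI and 7 in DEX against CI. Over all probe sets the same scaling gave 2760 calls in TNF and 3474 in DEX, where the deposited values gave 6402 and 7503. In CI it gave 4449, where the deposited values gave 4342. It gave 6007 in TNF against CI and 4219 in TNF against DEX, where the deposited values gave 10127 and 9900. The cause was not tested. Calls over all probe sets in CI numbered 4342, against 2149 without CI replicate 1, 2602 without CI replicate 2, 2873 without control replicate 2 and 2696 with 1 probe set per gene. With 1 probe set per gene the other comparisons had 3930 (TNF), 4316 (DEX), 5656 (TNF against CI), 5311 (DEX against CI, 9614 over all) and 5645 (TNF against DEX). Deviations of arrays with the same replicate number in their titles correlated at -0.31 to 0.36 over 15 pairs, 5 of them over 0.1. The highest were control 3 with TNF 3 (0.36) and control 1 with TNF 1 (0.30) and DEX 1 (0.26). Of the 11 arrays, 6 were closest to one of their own number. Whether arrays of 1 number were handled together was not tested. With a replicate block the member calls were 6, 6 and 8 in CI, TNF and DEX against control, 11 in TNF against CI, 11 in DEX against CI and 8 in TNF against DEX. Signal limits 2 ends of the scale: Adipoq lay near the highest values, and Lep, Rbp4 and 1 Adipor1 probe set were too dim to be tested with the filter at the median.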
